A study of Drosophila melanogaster with 9 samples.

Results

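Testes of 2 meiotic arrest mutants were set directly against each other, *Nxt1* minus *aly*, on 6 of the 9 arrays of the series. The 3 *Nxt1* arrays held testes of w; Nxt1[z2-0488]/Nxt1[DG05102] males grown at 25°C, and the 3 *aly* arrays held testes of aly[5] red[1] e[1] males grown at 27°C. The other 3 arrays held control testes of w; tinRNAi/+; bamGal4VP16/+ males grown at 29°C, in which an RNAi construct against *tin* was driven in the male germline. The control arrays were outside the contrast, and their signals are given only as a background level. All arrays were chosen by their titles. In each group, testes were dissected by hand within a day of eclosion and frozen until enough had been gathered, so that each array stands for a pool of animals. The *Nxt1* combination pairs a substitution allele that keeps some function with an insertion allele. The *Nxt1* arrays were compared with arrays that already existed. Culture temperature, the rest of the genotype and any array batch therefore cannot be told apart from the mutated gene. The labels do not say whether arrays of a group came from separate cultures, and p-values then measure only the spread between these arrays.

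In the *Drosophila* testis, primary spermatocytes transcribe most of the genes that are needed later for meiotic division and for building sperm. The testis-specific meiotic arrest complex (tMAC) activates these genes in spermatocytes, and Aly (Always early) is a subunit of it. Nxt1 is the small partner of the RNA export receptor Nxf1, encoded by *sbr*, with which it carries mRNA through the nuclear pore. Mutants of both genes stop as mature primary spermatocytes, with no meiotic divisions and no spermatids. Testes of both mutants therefore lack the spermatids that control testes hold.

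The values are signals on a linear scale, as deposited after RMA (robust multi-array average), which corrects background and makes arrays alike in distribution. Differences are of mean log2 signals, *Nxt1* minus *aly*, so that 1 stands for a 2 fold difference and a positive value for a higher signal in *Nxt1* testes. A probe set or gene passed at an adjusted p under 0.05 in limma (Benjamini-Hochberg adjustment over 18769 probe sets). Median signals were 108.7 to 109.4 on the *Nxt1* arrays, 98.4 to 100.1 on the *aly* arrays and 107.2 to 109.5 on the control arrays. No detection calls were used, so that whether a very low signal differs from none was not tested, and differences that end in such signals have no firm size.

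The *aly* probe set had signals of 365, 385 and 354 on the *Nxt1* arrays, 52.8, 50.8 and 57.5 on the *aly* arrays and 106, 93.4 and 98.0 on the control arrays. The log2 difference was 2.78 (standard error 0.09, limma's adjusted p = 4.40e-07). Every *aly* array lay below every control array, and every *Nxt1* array lay above every control array. Part of the difference is therefore a signal above control in *Nxt1* testes, which the *aly* label does not imply, and its size does not check that label. *Nxt1* had signals of 808, 940.5 and 859 in *Nxt1* testes, 726, 1116 and 923 in *aly* testes and 344, 350.3 and 351 in control testes. The 2 mutants overlapped in this gene (difference -0.07, standard error 0.16, adjusted p = 0.744), and since 1 of its alleles is a substitution its signal does not check the label. *e* (*ebony*), whose allele is carried with *aly*, was lower in *Nxt1* testes, with 75.2, 61.9 and 66.3 there and 121, 131 and 141 in *aly* testes. The spermatocyte gene *can*, a testis TAF, was bright in both mutants and averaged 3346 ± 176 in *Nxt1* and 4328 ± 778 in *aly* testes (SD, n = 3 each).

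More probe sets were lower than higher in *Nxt1* testes, but those 8 fold or more apart were mostly higher. Of 18769 probe sets, 3643 (19.4%) were higher and 6457 (34.4%) lower in *Nxt1* than in *aly* testes. The lower ones mostly differed little, with a median difference of -0.56 against 0.97 in the higher ones. Many lower ones were dim, with 2276 lower and 377 higher among probe sets whose signals averaged under 64 on the 6 arrays. Among probe sets at least 2 fold apart, 1769 (9.43%) were higher and 1389 (7.4%) lower in *Nxt1* testes. At 8 fold the counts were 521 (2.78%) and 49 (0.261%), and at 16 fold they were 261 (1.39%) and 7 (0.0373%). Counted as genes, 238 of 11982 (1.99%) were at least 16 fold higher and 5 (0.0417%) at least 16 fold lower in *Nxt1* testes. All *Nxt1* arrays lay above all *aly* arrays in 28.5% of genes and below all of them in 39.4%. The split of the smaller differences rests on the scaling, since with arrays centred on *CG3927*, the reference gene of the study's PCR, 6262 probe sets were higher and 2294 lower, and the median of all probe sets moved by 0.36. With arrays centred on their medians the counts were 3117 and 9501. The excess of large differences towards *Nxt1* testes at 8 and 16 fold held with each of these scalings.

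**Figure D1:**
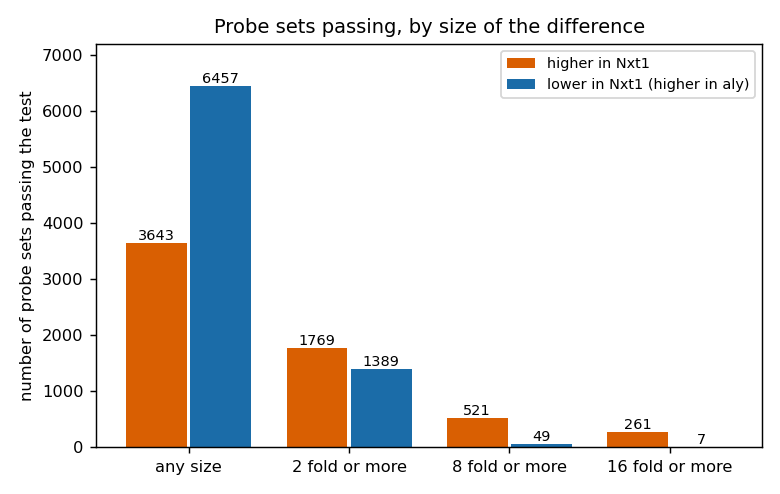
Number of probe sets that passed the test, by the least size of the difference, with bars for probe sets higher in *Nxt1* testes on the left of each pair and for those lower in *Nxt1* testes on the right. Of the probe sets that passed at any size 3643 were higher and 6457 lower, and of those 16 fold or more apart 261 were higher and 7 lower.

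Probe sets higher in *Nxt1* testes by 16 fold or more mostly lay under 100 in *aly* testes, where array medians were 98.4 to 100.1. Their median signal was 2471 in *Nxt1*, 83.1 in *aly* and 5059 in control testes, and 163 of the 261 lay under 100 in *aly* testes. The mean control signal was nearer to *Nxt1* than to *aly* in 245 of them. Of the 247 with a single gene symbol, 176 carry only a CG or CR number, so that most of these genes are without a given name. On 98 probe sets of 88 genes every *Nxt1* array was above 1000 and every *aly* array under 100, and on none was it the other way round. The 49 probe sets lower in *Nxt1* testes by 8 fold or more had a median signal of 166 in *Nxt1*, 1937 in *aly* and 559.6 in control testes. Control testes were nearer to *Nxt1* in 27 of these and nearer to *aly* in 22.

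**Figure D2:**
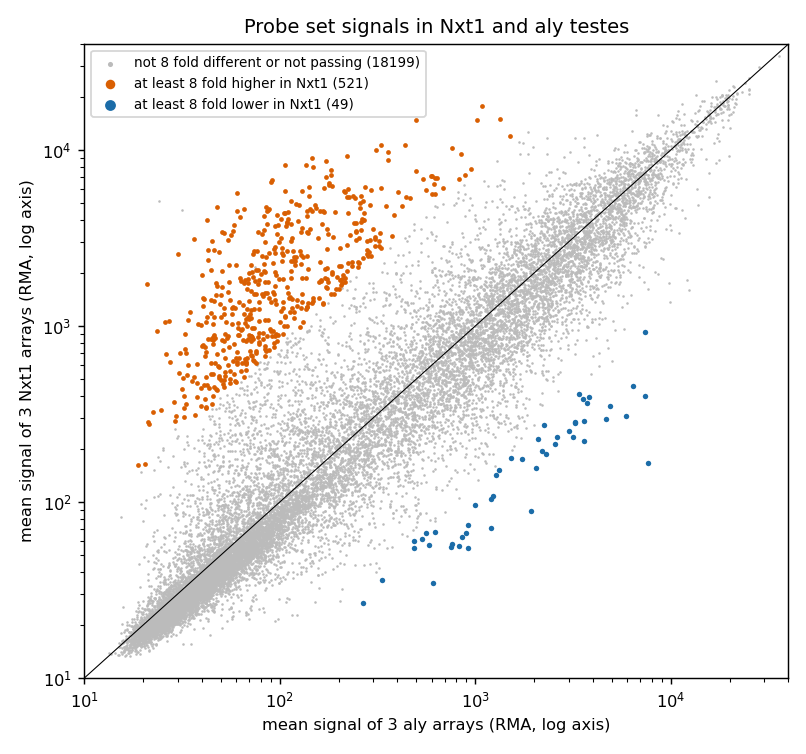
Mean signal of the 3 *Nxt1* arrays (vertical, log axis) against that of the 3 *aly* arrays (horizontal, log axis) for each probe set, with the line of equal signal. Above the line the 521 probe sets at least 8 fold higher in *Nxt1* testes form a cloud that lies mostly under 100 on the *aly* axis, and below it lie 49 that were at least 8 fold lower.

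The 12 genes with the largest difference towards *Nxt1* testes were *CG15530*, *ACXC*, *CG31406*, *CG30268*, *CG6614*, *CG10750*, *CG10307*, *CG30270*, *CG14456*, *CG1137*, *CG10841* and *CG12069*. Their log2 differences lay between 6.07 and 6.71, with limma's adjusted p between 9.12e-08 and 1.40e-06. *ACXC* encodes an adenylyl cyclase of a testis-specific family, and its signals were 4532, 3637 and 3911 in *Nxt1* testes, 60.9, 33.0 and 33.6 in *aly* testes and 3314, 3110.0 and 3949.5 in control testes. *CG15530* had 4899, 4509 and 4773 in *Nxt1*, 72.6, 35.7 and 35.8 in *aly* and 7429, 7306 and 6763 in control testes. For *ACXC* the *Nxt1* arrays overlapped those of control testes, whereas for *CG15530* they lay below them. *CG14456* had signals of 6712, 6651 and 6486 in *Nxt1* testes, 94.7, 90.3 and 84.9 in *aly* testes and 1876, 1924 and 2055 in control testes. *CG31406* had 6741, 5057 and 5383 in *Nxt1*, 69.8, 65.9 and 45.5 in *aly* and 2134, 2066 and 2027 in control testes. In these 2 genes, and in *CG30268*, *CG6614* and *CG10750*, every *Nxt1* array lay above every control array as well.

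The 12 genes with the largest difference towards *aly* testes were *CG14537*, *CG14370*, *CG32263*, *Fbp1*, *CG8152*, *BomS6*, *Gfat1*, *CG3526*, *CG34166*, *Tsp42A*, *hale* and *CG4907*. Log2 differences ran between -4.45 for *CG14537* and -3.73 for *CG4907*, well short of those in the other direction, with limma's adjusted p between 1.75e-07 and 8.33e-05. *CG14537* had signals of 82.8, 81.2 and 102 in *Nxt1*, 1816, 2180.1 and 1816 in *aly* and 4647, 4803 and 4541 in control testes. *CG32263* had 36.2, 35.2 and 32.8 in *Nxt1*, 626, 627 and 579.5 in *aly* and 2936, 3163 and 2950.1 in control testes. *hale*, one of the comet genes, whose transcripts gather at the ends of elongating spermatids, had 212, 249 and 244 in *Nxt1*, 2985, 3233 and 3216 in *aly* and 5736, 5864 and 6445 in control testes. In these 3 genes, and in *Tsp42A*, a tetraspanin, and *CG4907*, the *aly* arrays lay between the other 2 groups. *CG14370* had signals of 381, 401 and 422 in *Nxt1*, 6968, 7684 and 7540.2 in *aly* and 3059.7, 3152 and 3015 in control testes, with *aly* the highest of the 3. *Gfat1*, an enzyme of amino sugar synthesis, entered through a probe set with 55.0, 54.3 and 54.6 in *Nxt1* and 1362, 453 and 945 in *aly* testes (log2 difference -3.94). Its brighter probe set differed less, with 467, 577 and 477 in *Nxt1* and 862, 1094 and 1140.1 in *aly* testes (log2 difference -1.02, adjusted p = 7.16e-04). *CG3526* differed by -3.88 on its brighter probe set and by -1.33 on a dimmer one.

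**Figure D3:**
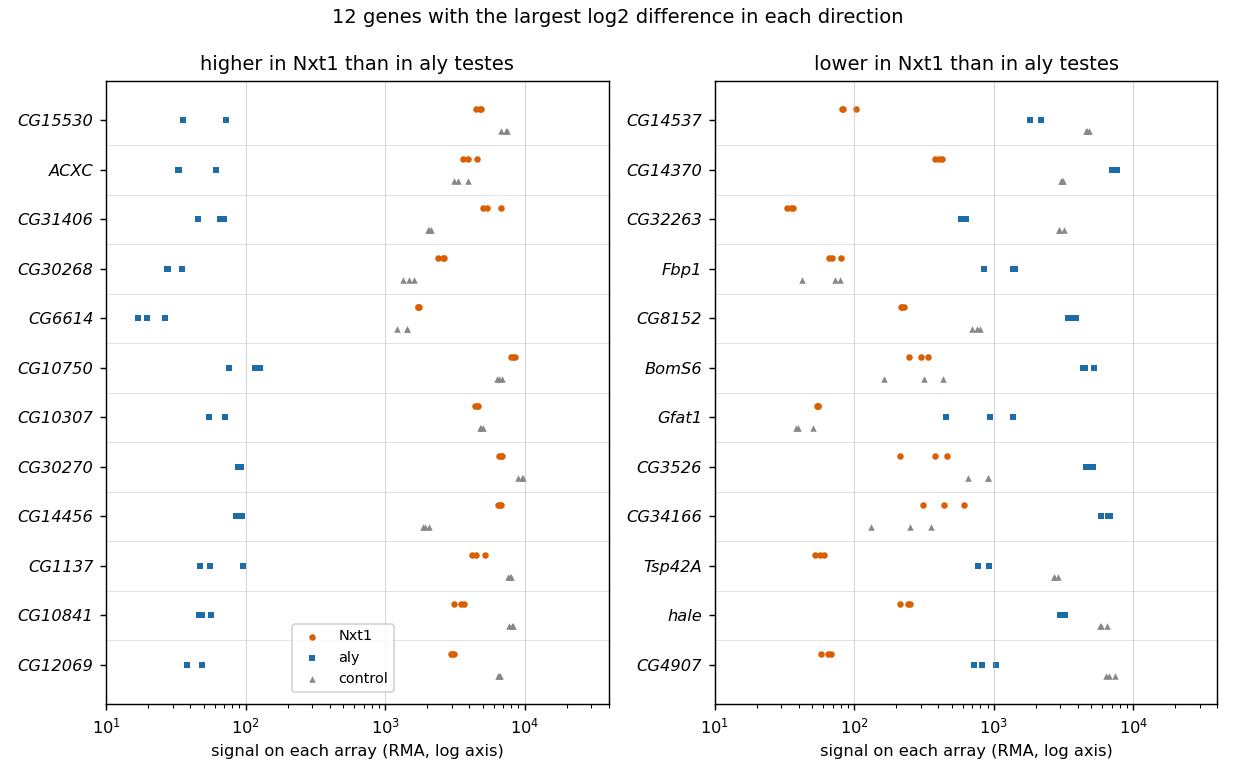
Signal on each array (log axis) of the 12 genes with the largest difference towards *Nxt1* testes (left) and towards *aly* testes (right), with circles for *Nxt1*, squares for *aly* and triangles for control arrays. In the left panel the *aly* arrays stand apart from both other groups, and in the right panel some genes have the control arrays beside *Nxt1* and others have them beyond *aly*.

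Of 7 measured transcripts that the study had followed by in situ hybridisation, 4 were higher and 3 lower in *Nxt1* testes, beside 25.4% higher and 34% lower of all 11982 genes. *CG42355* had signals of 8355, 8177 and 8110.0 in *Nxt1*, 143, 136 and 129 in *aly* and 10309.6, 10431 and 9539 in control testes. *CycB*, the mitotic and meiotic cyclin B, had 1311, 1269.8 and 1523 in *Nxt1*, 80.9, 98.0 and 90.5 in *aly* and 387, 348 and 488 in control testes. Both stood well above *aly* in *Nxt1* testes, *CG42355* below every control array and *CycB* above every control array. *djl* (*don juan-like*, log2 difference 4.41) and *CG15177* (5.19) were also higher in *Nxt1* testes. *CG11249* was near the bottom of the scale in both, with 49.5, 38.7 and 38.2 in *Nxt1*, 53.1, 59.0 and 67.2 in *aly* and 4188, 4100.0 and 3930.4 in control testes. *Ran-like*, a testis form of the transport GTPase Ran, had 27.3, 28.4 and 33.2 in *Nxt1* and 65.4, 82.0 and 33.4 in *aly* testes (difference -0.93, adjusted p = 0.0362). *CG3927* itself was lower in *Nxt1* testes by a small amount, with 8378, 8497 and 8789.5 there, 10575, 11687 and 10738 in *aly* and 5110.0, 4965 and 4922 in control testes (difference -0.36, adjusted p = 0.00827). With arrays centred on *CG3927*, which removes its own difference by construction, 4 of the other members were higher and none lower. Only 1 of the 3 lower members was still called lower without *Nxt1* replicate 2, and likewise without *Nxt1* replicate 3.

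All 6 genes that the study assayed in *thoc5* testes, which lack a subunit of the THO export complex, were higher in *Nxt1* than in *aly* testes. *Mst87F*, a sperm tail protein gene, differed by 1.71, *twe* (*twine*, the Cdc25 phosphatase of meiosis) by 0.39, *bol* (*boule*, its translational regulator) by 1.17 and *fzo*, which fuses the mitochondria of spermatids, by 1.49. *twe* had signals of 197, 145 and 162 in *Nxt1*, 124, 126 and 130.3 in *aly* and 227, 221 and 237 in control testes. It passed narrowly (adjusted p = 0.0293) and no longer did when any array other than *Nxt1* replicate 2 was left out. Of 9 nascent RNA test genes, none was higher and 4 were lower in *Nxt1* testes, beside 25.4% and 34% of all genes. In both mutants 7 of the 9 lay under 100. With arrays centred on *CG3927* 2 of them were higher and 2 lower, and with dim probe sets left out 1 was lower. *CG4907* was the exception in size, with 58.0, 68.2 and 64.9 in *Nxt1*, 1033, 716 and 819 in *aly* and 6702, 6339.8 and 7399 in control testes. Its *aly* arrays lay between the *Nxt1* and the control arrays. The 2 control genes of that assay were a little higher in *Nxt1* testes, *CG12699* by 0.55 and *ocn* by 0.40.

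Genes for adenylyl cyclases of the testis were among those most changed. Of 5 measured, 4 were higher in *Nxt1* testes and none lower, with a median difference of 3.27 beside -0.13 over all genes. Besides *ACXC*, these were *ACXA* (4.94), *ACXE* (3.27) and *ACXB* (1.05). *ACXB* was low in both mutants, with 84.6, 86.6 and 82.0 in *Nxt1*, 41.8, 38.6 and 42.1 in *aly* and 957, 894 and 1117 in control testes. With dim probe sets left out 3 were higher. *ACXD* did not pass (-0.01, standard error 0.13), with 89.4, 93.8 and 89.2 in *Nxt1*, 76.5, 93.9 and 106 in *aly* and 89.0, 84.4 and 77.3 in control testes. It was low in all 3 genotypes.

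Sperm chromatin genes encode the protamines and the transition proteins that pack DNA in the sperm head. Of 8 measured, 6 were higher and 2 lower in *Nxt1* testes, beside 25.4% and 34% of all genes, with a median difference of 2.64. *ProtB*, a protamine, had signals of 3849, 2371 and 2926 in *Nxt1*, 103, 133 and 108 in *aly* and 8334, 8359 and 8380.2 in control testes. *ProtA* (3.37), *Mst33A* (3.15) and *Prtl99C* (2.94) were higher as well. *tHMG2*, an HMG-box protein of spermatids, went the other way, with 2126, 1902 and 1934 in *Nxt1*, 8504, 8856 and 8444 in *aly* and 13980.1, 14098 and 14316 in control testes. The transition protein gene *Tpl94D* was also lower (-0.52), but did not pass with arrays centred on *CG3927*.

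In the list of sperm tail genes, which also held *ocn* and *janB*, 8 of 13 were higher and 4 lower in *Nxt1* testes. The median difference was 0.40, which is that of *ocn*. Of all genes 25.4% were higher and 34% lower. *dj* (*don juan*), a protein of the tail mitochondria, had signals of 810.0, 584 and 678 in *Nxt1*, 57.7, 51.8 and 33.3 in *aly* and 4368, 4054 and 3996 in control testes. *janB* (3.50) was higher too. *Mst84Db* (-1.32) and *Mst98Ca* (-1.15) were lower, so that the tail genes did not all move one way. Comet and cup genes, which are transcribed in spermatids, had 9 of 15 higher and 5 lower. Their median signal was 582 in *Nxt1*, 286 in *aly* and 6015 in control testes, so that both mutants lay far below control testes. *p-cup* had 913, 889 and 871 in *Nxt1*, 66.5, 69.5 and 46.6 in *aly* and 2069, 1972 and 2232 in control testes, and *c-cup* (3.22) and *w-cup* (2.74) were also higher. *hale* was the comet gene furthest in the other direction.

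Many genes of the basic machinery of the cell have a second copy in *Drosophila* that is used mainly in the male germline. In the lists of such proteasome and mitochondrial paralogs more members were higher than lower in *Nxt1* testes. Among copies of nuclear transport genes, *Ntf-2r* (-2.77) and *Ran-like* (-0.93) were lower. Of 13 testis proteasome subunits 7 were higher and 3 lower, with a median of 0.94. *Prosalpha6T*, a subunit of the 20S core, had signals of 4688, 5302 and 4742 in *Nxt1*, 137, 122 and 104 in *aly* and 8241, 8713 and 8039 in control testes. *Prosbeta5R1* (4.09), *Prosbeta4R1* (3.46) and *Prosalpha4T2* (3.24) followed it, whereas *Rpn12R*, of the regulatory particle, was lower (-1.37). The general proteasome subunits differed far less, between -0.85 and 0.54. Of 26 general subunits 9 were higher and 5 lower, beside 25.4% and 34% of all genes. With arrays centred on *CG3927* 20 of the 26 were higher and 1 lower.

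Testis paralogs of mitochondrial proteins were the longest of these lists, with 18 of 26 higher and 3 lower in *Nxt1* testes and a median of 0.68. These counts stand beside 25.4% higher and 34% lower of all genes. The median signal of the members was 622 in *Nxt1*, 158 in *aly* and 6289 in control testes, so that *Nxt1* testes too lay far below control testes. *knon* (*knotted onions*), an ATP synthase subunit paralog that shapes the mitochondrial derivative of spermatids, had signals of 3738, 3283 and 2878 in *Nxt1*, 71.5, 39.1 and 57.9 in *aly* and 4499.8, 4571 and 5488 in control testes. Its *Nxt1* arrays stood apart from the *aly* arrays by 5.91 on the log2 scale. *ATPsynCF6L* (5.39), of the ATP synthase, and *COX6AL2* (4.85) and *COX5BL* (4.25), of cytochrome c oxidase, were also higher. *tomboy40*, a paralog of the import channel Tom40, was lower, with 41.7, 44.1 and 46.9 in *Nxt1*, 295, 294 and 282 in *aly* and 9077, 9426 and 8904 in control testes. *ND-24L* (-1.84) and *Tim17a2* (-0.96) were lower as well.

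**Figure D4:**
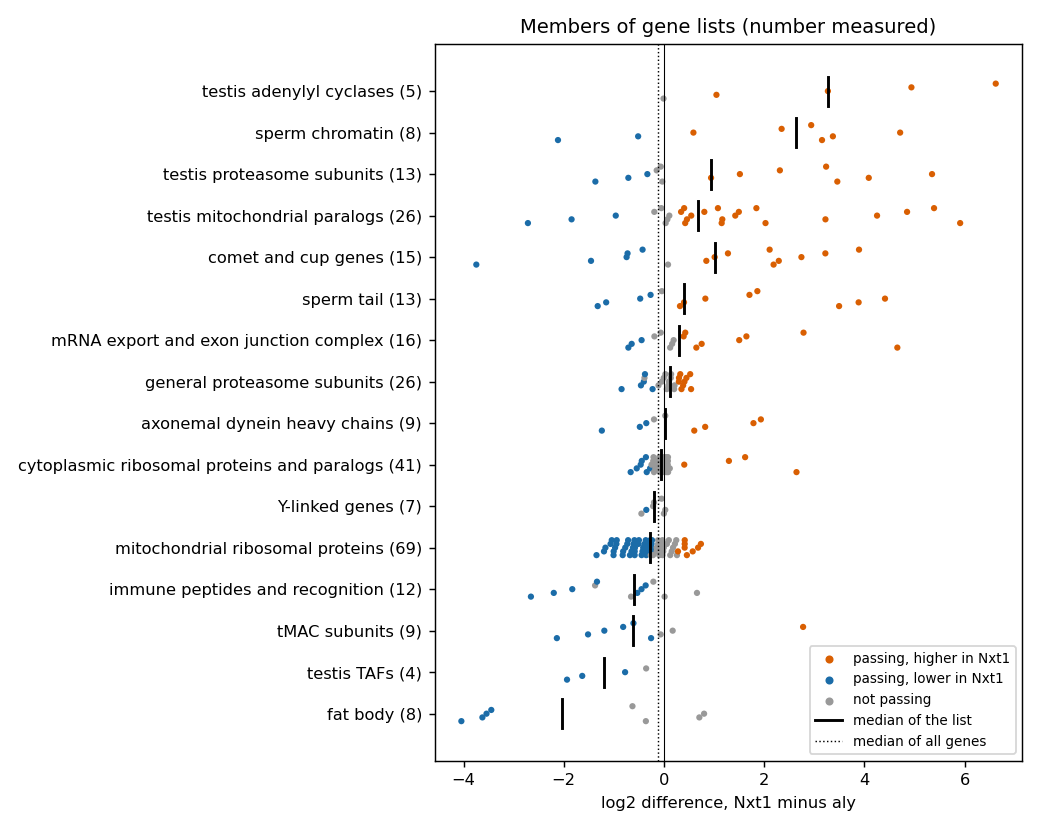
Log2 difference, *Nxt1* minus *aly*, of each measured member of 16 gene lists, with orange points for members that passed as higher and blue points for members that passed as lower in *Nxt1* testes, a thick bar at the median of each list and a dotted line at the median of all genes (-0.13). Adenylyl cyclases, sperm chromatin genes and testis paralogs reach far to the right, the general proteasome subunits and cytoplasmic ribosomal proteins have their medians near 0, and the fat body genes, the testis TAFs and the tMAC subunits have their medians furthest to the left.

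Meiotic cell cycle genes were split, with 7 of 12 higher and 4 lower in *Nxt1* testes, beside 25.4% and 34% of all genes. *CycB* and *fzr2*, a testis activator of the anaphase-promoting complex (1.77), were higher. *sunn*, which holds sister centromeres together in meiosis, was lower (-2.20), as was *mtrm* (-1.65), an inhibitor of Polo kinase in the female germline. Tubulins differed by isotype. *betaTub85D*, the beta-tubulin of the male germline, had signals of 12743, 12292 and 11395 in *Nxt1*, 4507, 4014 and 4015 in *aly* and 19315, 19817 and 19463 in control testes. *alphaTub85E* had 1404, 1623 and 1797 in *Nxt1*, 10418, 13587 and 13279 in *aly* and 4665, 5593 and 3669.6 in control testes. These 2 isotypes went in opposite directions.

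Most, but not all, of the listed tMAC and testis TAF genes, whose products act in spermatocyte transcription, had lower signals in *Nxt1* than in *aly* testes. Of 9 tMAC subunits 6 were lower and 1, *aly* itself, was higher, with a median of -0.61. *topi*, a zinc finger subunit, had signals of 1267, 1336 and 1257 in *Nxt1*, 5786, 5308 and 5896 in *aly* and 1344, 1258 and 1369 in control testes. *comr* had 756, 762 and 809.7 in *Nxt1*, 2094, 2243 and 2323 in *aly* and 417, 333 and 425 in control testes, and *mip40* differed by -1.19. In *topi* the *Nxt1* arrays overlapped those of control testes and the *aly* arrays stood above both, and in *comr* both mutants lay above control testes. Of 4 testis TAFs, subunits of a testis form of TFIID that work with tMAC, 3 were lower and none higher, with a median of -1.20. These were *nht* (-1.63), *sa* (-1.93) and *mia* (-0.78). *can* (-0.36) did not pass (adjusted p = 0.071). Of 7 subunits of the general dREAM complex, to which tMAC is related, 2 were higher and 2 lower. Among all genes 25.4% were higher and 34% lower. With arrays centred on *CG3927*, 4 tMAC subunits and 3 testis TAFs were still lower.

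Genes of early germ cells were mixed, with 2 of 7 higher and 3 lower in *Nxt1* testes, beside 25.4% and 34% of all genes. *bam*, the switch from proliferating to differentiating germ cells, had signals of 560.3, 509.7 and 570.0 in *Nxt1*, 889.7, 1092 and 939 in *aly* and 179.8, 138 and 176 in control testes. *tut*, a partner of Bam in that switch, had 248, 281 and 298 in *Nxt1*, 952, 1099 and 998 in *aly* and 435, 399.9 and 406 in control testes, and *zpg*, a germline gap junction protein, differed by -1.91. These 3 genes were lower in *Nxt1* than in *aly* testes. *stai* (*stathmin*), which binds tubulin, was higher, with 1842, 1303 and 1510.4 in *Nxt1*, 325, 287 and 283 in *aly* and 1631, 1427 and 1666 in control testes. In such whole-testis samples, fewer cells of a type and less RNA per cell cannot be told apart. Of 18 piRNA pathway genes 5 were higher, among them *papi* (2.38), and 4 lower, among them *zuc* (-1.22). These counts stand beside 25.4% higher and 34% lower of all genes. Without *aly* replicate 2 the number of lower piRNA genes was 7.

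Since *Nxt1* acts in RNA export, genes of that pathway were also listed. Of 16 mRNA export and exon junction genes 8 were higher and 3 lower in *Nxt1* testes, with a median of 0.29. These counts stand beside 25.4% higher and 34% lower of all genes. The members furthest up were *Ref2*, a paralog of the export adaptor Ref1, with 2596, 2038 and 2169 in *Nxt1*, 74.8, 74.1 and 129 in *aly* and 1567, 1375 and 1523 in control testes, and the NXF family members *nxf4* (2.79), *nxf2* (1.65) and *Nxf3* (1.50). *thoc7*, of the THO complex, was lower (-0.71). Among 18 genes of nuclear transport 5 were higher and 6 lower, shares close to the 25.4% and 34% of all genes, and with arrays centred on *CG3927* 7 were higher and 3 lower. *Ntf-2r*, a testis copy of the Ran importer NTF2, was the lowest of them, with 169, 157 and 171 in *Nxt1*, 1172, 1054 and 1168 in *aly* and 2199.7, 2096 and 2301 in control testes. *Ranbp16* (1.78) and the importin *Pen* (1.26) were higher, and the importin *Fs(2)Ket* (-1.17) was lower on its brightest probe set and higher on another (0.61). The dimmer probe sets of *Nxf3*, and likewise those of *CG42355* and *bol*, lay near the bottom of the scale in both mutants and did not share the call of the brightest one.

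Of 8 genes of the fat body, the storage and endocrine tissue of insects, 4 were lower and none higher in *Nxt1* than in *aly* testes, with a median of -2.04. The other 4 did not pass. Of all genes 34% were lower and 25.4% higher. *Fbp1*, a receptor for larval storage proteins, had signals of 66.3, 68.7 and 80.0 in *Nxt1*, 843, 1377 and 1406 in *aly* and 79.4, 73.2 and 42.1 in control testes. *Lsp2*, a larval storage protein, had 477, 196 and 425 in *Nxt1*, 3489.7, 3368 and 4389 in *aly* and 288, 232 and 147 in control testes. *Obp99b* (-3.62) and *Fbp2* (-3.54) made up the rest. In all 4 genes the *aly* arrays lay above every *Nxt1* and every control array. The summed signal of the 8 genes was 2289.7, 1257 and 2773 on the *Nxt1* arrays, 8497, 10160.3 and 10853 on the *aly* arrays and 5089, 5239.8 and 4858 on the control arrays. Most of the sum in control testes was *apolpp*, the precursor of the lipid carrier of insect blood, with 1263, 579 and 735 in *Nxt1*, 919, 1035 and 1199 in *aly* and 4308, 4469 and 4336 in control testes, which overlapped between the mutants and was highest in control testes. None of the yolk protein genes *Yp1*, *Yp2* and *Yp3* passed. *Yp1* had 29.3, 30.7 and 271 in *Nxt1* and 33.3, 34.8 and 39.8 in *aly* testes, *Yp2* had 58.0, 51.2 and 499.6 in *Nxt1* and 63.8, 70.7 and 75.8 in *aly* testes, and *Yp3* had 75.5, 74.7 and 465 in *Nxt1* and 182, 265 and 201 in *aly* testes. *Nxt1* replicate 3 alone stood out in all 3 of them, and without it *Yp3* passed as lower in *Nxt1* testes (-1.50), as *apolpp* did without *Nxt1* replicate 1 (-0.68).

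Of 12 immune genes 7 were lower and none higher in *Nxt1* testes, with a median of -0.59. Of all genes 34% were lower and 25.4% higher. With arrays centred on *CG3927* 4 of the 12 were lower and 1 higher. *Drs* (*Drosomycin*), an antifungal peptide, had signals of 115, 55.1 and 181 in *Nxt1*, 619, 877 and 529 in *aly* and 78.2, 117 and 129 in control testes. *Mtk* (*Metchnikowin*) had 79.3, 85.2 and 105 in *Nxt1*, 287, 617 and 389.7 in *aly* and 81.2, 83.3 and 116 in control testes. The recognition proteins *PGRP-SC2* (-1.83) and *PGRP-SB1* (-1.34) were lower too, and *BomS6*, outside the list, a secreted peptide of the Toll response, had 337, 245 and 302 in *Nxt1*, 4499, 5209 and 4354 in *aly* and 432, 318 and 162 in control testes. In these 5 genes the *aly* arrays stood above all others. Blood cell genes had 4 of 8 lower in *Nxt1* testes, beside 34% of all genes, and 2 without *Nxt1* replicate 1. The furthest was *NimC1* (-1.04). With *CG3927* centring 1 blood cell gene was higher and 1 lower, so that the direction of this list rests on the scaling. Whether fat body or blood cells dissected along with the testes had a part in these values was not tested.

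**Figure D5:**
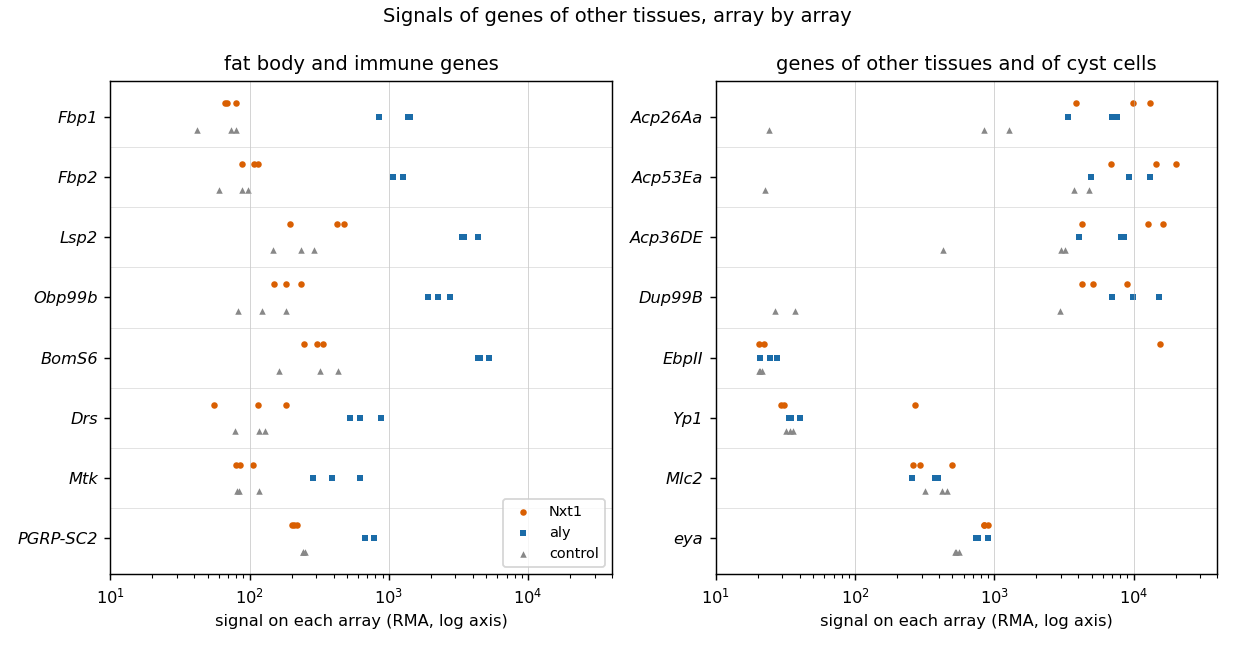
Signal on each array (log axis) of 8 fat body and immune genes (left) and of genes of accessory gland, ejaculatory duct and bulb, yolk protein, muscle and cyst cells (right), with circles for *Nxt1*, squares for *aly* and triangles for control arrays. On the left the *aly* arrays lie above the other groups, whereas on the right the mutants overlap and single arrays stand out, such as *Nxt1* replicate 1 in *EbpII*.

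Other tissues of the male tract were present unevenly and did not divide the 2 mutants in the same way. The accessory gland makes proteins of the seminal fluid. Of 15 genes for such proteins 14 did not pass, and the summed signal ran from 64959 to 191536 on *Nxt1* arrays, 53087 to 125060.0 on *aly* arrays and 1541 to 44124 on control arrays. *Acp95EF* was the 1 member that passed, lower in *Nxt1* testes (-1.55). Among 7 genes of the ejaculatory duct and bulb, *EbpII* had 15369.8, 20.3 and 22.2 in *Nxt1* and 20.6, 27.4 and 24.6 in *aly* testes, so that only *Nxt1* replicate 1 carried it. *Dup99B*, of the duct, had 8992, 4258 and 5129.8 in *Nxt1* and 6980.0, 15095 and 9904 in *aly* testes, with overlap. Among 9 muscle genes 2 were higher and 2 lower, and *Mlc2*, a myosin light chain, had 494, 260.2 and 294 in *Nxt1* and 374, 257 and 393 in *aly* testes. Of 7 genes of cyst and hub cells 2 were higher and 2 lower, and of all genes 25.4% were higher and 34% lower. *eya*, of cyst cells, had 848, 839 and 898 in *Nxt1* and 739, 896 and 761 in *aly* testes, and *chinmo*, of cyst stem cells, was higher in *Nxt1* testes (2.10). Another *chinmo* probe set was higher too (2.69), and its dimmest, near the bottom of the scale in both mutants, was lower (-0.24). With *CG3927* centring no muscle, cyst or hub cell gene was lower. The part of these tissues in other genes was not tested.

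Y-linked fertility genes, which spermatocytes transcribe from very large loci, could not be compared well. Of 7 measured, 6 lay under 100 in both mutants, none was higher and 1 was lower, and none was called lower when any of the 3 *Nxt1* arrays was left out. Axonemal dynein heavy chains, the motors of the sperm tail, had 4 of 9 higher and 3 lower, beside 25.4% and 34% of all genes. Without *Nxt1* replicate 2 only 2 of the 9 were higher. With *CG3927* centring 4 were higher and 1 lower.

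Of 41 cytoplasmic ribosomal proteins and paralogs 4 were higher and 7 lower, beside 25.4% and 34% of all genes, and the median was -0.06. The higher ones included the paralogs *RpL10Aa* (2.65), *RpS28-like* (1.62) and *RpL22-like* (1.30), of which *RpL10Aa* had signals of 789.7, 719 and 619 in *Nxt1*, 114, 151 and 83.3 in *aly* and 10617, 10702 and 10464 in control testes. With arrays centred on *CG3927* the list turned, with 28 higher and 1 lower. Mitochondrial ribosomal proteins had 39 of 69 lower and 8 higher in *Nxt1* testes, with a median of -0.27. *mRpL17* (-1.35) and *mRpL21* (-1.20) were the furthest. This list turned as well with *CG3927* centring, with 23 higher and 18 lower, so that its direction rests on the scaling. Of 8 heat shock genes 2 were lower, among them *Hsp68* (-1.36), and 1 was higher. Among all genes these shares were 34% and 25.4%. The *Nxt1* flies had been grown at the lower temperature, which cannot be told apart from the genotype.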

How the data were processed

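Total RNA of whole testes was hybridised to Affymetrix *Drosophila* arrays, 3 arrays each for *Nxt1*, *aly* and control testes. The deposited values are signal intensities on a linear scale, made by the authors with GCOS and RMA, whose versions are not given in the sources used here. The log2 of each intensity was taken with nothing added. Of 18952 probe sets, 183 control probe sets were left out. Of the remaining 18769, 13647 carry 1 gene symbol, 402 several and 4720 none. Where several probe sets carried the same symbol, the brightest on average over the 6 arrays stood for the gene, which gave 11982 genes. RMA sets the arrays to a like distribution, so that a change of all transcripts together would not be seen.

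The 3 *Nxt1* and 3 *aly* arrays went into limma 3.58.1 under R 4.3.3 (lmFit, then eBayes with its defaults), with Benjamini-Hochberg adjustment over all probe sets. Control arrays were left out of the fit. An exact permutation of 3 against 3 arrays cannot give a p below 0.1 and was not run. On simulated data with 18769 probe sets, 50 each were set apart by 0.5, 1, 2 and 5 on the log2 scale. All others were left unchanged. The test found 26% of those set apart by 0.5, 68% by 1, 96% by 2 and 100% by 5, and 4.61% of calls were false. Far more probe sets passed in the real data, so that these shares do not carry over to it. Counts were made in Python 3.11.15 (pandas 2.3.3, numpy 2.4.6) and plots with matplotlib 3.10.9. The number of arrays limits the precision.

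The comparison and the 39 gene lists with measured members were chosen with earlier results of these data known. The rule for named genes took the 12 with the largest difference in each direction (passing, 1 symbol, no overlap), the targeted and marker genes, genes the study names, cell type markers and up to 4 members per list with the largest absolute difference. Members named outside it, mostly those that went against the rest of their list, were chosen after their values were seen: *ACXD*, *tHMG2*, *Tpl94D*, *Mst84Db*, *Mst98Ca*, *Rpn12R*, *tomboy40*, *ND-24L*, *Tim17a2*, *thoc7*, *PGRP-SB1*, *Yp3* and *Cyp6a17*. Alternatives were all 9 arrays in the fit, centring on ribosomal protein probe sets, on *CG3927* or on the array median, dim probe sets left out, other moderation, a replicate block, each array left out, linear means, every array pair past the fold and all probe sets of list members. *w*, *red* and *tin* were not analysed here. No sequences were used.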

Additional observations from a re-analysis of the deposited data

How the results depend on the processing

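The excess of differences of 8 and 16 fold towards *Nxt1* testes held under all alternatives run, while the balance of small ones did not. Centring on *CG3927* gave 6262 probe sets higher and 2294 lower, and 735, 31 and 2 that were lower by at least 2, 8 and 16 fold. With every array pair past the fold these 3 counts were 865, 31 and 4. Without dim probe sets 3275 were higher and 3964 lower. Fewer were tested then, and many of the lower calls were dim, with 2276 lower and 377 higher where signals averaged under 64. The causes were not tested. Leaving out 1 array gave 3159 to 3642 higher and 4764 to 6575 lower. At 2 fold the ranges were 1716 to 1811 higher and 1350 to 1470 lower, at 8 fold 508 to 536 and 48 to 58, and at 16 fold 248 to 270 and 6 to 9. Replicate numbers did not pair the samples, since same-numbered arrays had deviations that correlated at 0.0017, 0.025 and -0.20, and *Nxt1* replicate 1 correlated best with *aly* replicate 3 (0.23). With the replicate number as a block 3513 probe sets were higher and 5897 lower.

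Of 136 genes named or plotted, 120 kept direction and call under every alternative. Differences that changed sign were all in genes that had not passed. With *CG3927* centring *ACXD* was at 0.35, *Nxt1* at 0.30, *can* at 0.0059 and *apolpp* at 0.00034. With ribosomal centring *Mlc2* was at -0.021, and with median centring *Mlc2* was at -0.13 and *eya* at -0.018. Over the arrays left out *ACXD* ranged from -0.14 to 0.099, *Mlc2* from -0.28 to 0.18 and *Nxt1* from -0.23 to 0.084. *EbpII* ranged from -0.18, without *Nxt1* replicate 1, to 4.61, and without *Nxt1* replicate 3 *Yp1* was at -0.26 and *Yp2* at -0.36, with highest values of 1.35 and 1.28. *Ran-like* lost its call with *CG3927* centring, the replicate block and all single arrays left out except *aly* replicate 3, and *Tpl94D* lost it with *CG3927* centring. Signals under 100 limit what can be said of low genes.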

Other observations

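Other named genes were found among the 60 furthest towards *Nxt1* testes, chosen here after their values were seen. Several have roles in metabolism and transport in the male germline. *Gpdh2*, a glycerol-3-phosphate dehydrogenase, had signals of 4601, 4250.4 and 3787 in *Nxt1*, 78.7, 103 and 67.0 in *aly* and 5243, 5226 and 5542 in control testes. *Porin2*, a channel of the outer mitochondrial membrane, had 8896, 9656 and 9298 in *Nxt1*, 231, 272 and 163 in *aly* and 12011, 12059 and 11997 in control testes. In both genes the *Nxt1* arrays lay below the control arrays and far above the *aly* arrays. *Vha68-3*, a subunit of the vacuolar proton pump, differed by 5.33, *glob2*, a globin, by 5.44, and *Rsph3*, of the radial spokes of the sperm tail, by 5.39. *yuri*, which is needed for making sperm, differed by 5.47 on its brightest probe set and by 1.14 on another.

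Of 81 cytochrome P450 genes 17 were higher and 30 lower in *Nxt1* than in *aly* testes, beside 25.4% and 34% of all genes, and 36 lay under 100 in both. *Cyp4ad1* had signals of 1939.8, 1993 and 1618 in *Nxt1*, 134, 91.6 and 70.9 in *aly* and 1127, 1141 and 1283 in control testes, and *Cyp312a1* (3.75) was also higher, whereas *Cyp6a17* (-2.47) was lower. With arrays centred on *CG3927* the P450 list turned, with 24 higher and 12 lower. Of 34 glutathione S-transferases 4 were higher and 15 lower, among them *GstE2* (-2.11), and with *CG3927* centring 7 were higher and 7 lower. Glycolysis had 4 of 13 enzymes higher and 3 lower, and 1 lower without *Nxt1* replicate 3. *Hex-t2*, a testis hexokinase, had 1423, 1309.5 and 1106 in *Nxt1*, 174, 129 and 110.1 in *aly* and 10335, 10861 and 9567 in control testes. The sugar transporter *sut3* was lower (-1.81), and of the 4 *sut* genes 2 were lower and none higher. Of 4 sperm leucylaminopeptidases 1 was higher and 2 lower. Ecdysone response genes had 3 of 16 higher and 4 lower, and 1 higher and 2 lower without *Nxt1* replicate 2 or without *Nxt1* replicate 3. With *CG3927* centring 5 of them were higher and none lower. Without that centring, all of these lists stand beside 25.4% higher and 34% lower of all genes.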
